A study of Mus musculus with 12 samples.

Results

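The data compared here are gene expression profiles of the shaft and the flared end of the femur in mice that lack Dlx3 in bone-forming cells. The 6 Dlx3Oc-cKO libraries of the series' 12 were used: 3 from the diaphysis and 3 from the metaphysis, chosen by genotype and tissue as labelled. The 3 diaphysis and 3 metaphysis libraries of wild-type mice (Dlx3+/+) serve only for reference. All 12 mouse samples are male, 5 weeks of age and of mixed background. The labels name the deletion Dlx3Oc-cKO and do not describe the Cre line. In the published work on this line, Cre is driven by the osteocalcin promoter, which is active in osteoblasts and osteocytes, so cartilage, blood, vessel and other cells keep their Dlx3. No label says whether a wild-type mouse carried Cre. The mRNA libraries were made from whole pieces of tissue, and each value is an RPKM, a read count scaled to transcript length and to the library's mapped reads. A gene's value is the sum over its transcripts.

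The diaphysis is the tube of cortical bone, with its outer membrane (the periosteum) and the marrow inside. The metaphysis lies between the shaft and the growth plate, where cartilage is mineralized, invaded by vessels, resorbed by osteoclasts and replaced with spongy bone. Dlx3 belongs to the distal-less homeobox genes, which encode transcription factors, and is expressed in osteoblasts and osteocytes, in teeth and in skin. These libraries hold RNA of all the cells in a piece of femur, so fewer cells of a type and less RNA per cell cannot be told apart.

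The 2 regions are in separate deposited tables that share 18335 gene symbols. Of these, 12637 reached 1 RPKM in at least 3 of the 6 libraries and were tested. Low values in both tables stepped in multiples that fit the same transcript lengths, which allowed a test across them. Region and table still cannot be told apart, and each of the 12 titles carries a different number whose meaning the labels do not state, so whether both regions of any mouse were sampled is not known. The p-values therefore measure the spread between these libraries. By the size of the smallest steps, the diaphysis libraries held about 18600000, 40400000 and 54400000 reads, and the metaphysis libraries 24800000, 32700000 and 31600000. Diaphysis library 1 was the shallowest and had the largest globin share of all RPKM, at 26.5% against 13.5 to 18.7% in the other 5. Among the wild-type libraries, diaphysis library 1 stood apart, with type I collagen at 0.705% of all RPKM against 3.57 and 5.53% in the other diaphysis libraries. Tests that involve the wild-type libraries are given below with and without it.

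Dlx3, the deleted gene, is on chromosome 11 of the mm9 build, 94981403 to 94986610, plus strand. It was at 0.763, 1.55 and 1.17 RPKM in the Dlx3Oc-cKO diaphysis and at 1.98, 2.80 and 3.25 RPKM in the metaphysis. The 2 regions did not overlap, and both were below all 6 wild-type libraries except that 1 metaphysis value, 3.25, was just above the 3.22 RPKM of wild-type diaphysis library 1. The other 5 wild-type libraries held 7.64 to 13.1 RPKM. The files sum reads over whole transcripts and the labels do not name the deleted exons, so these values include any reads from exons that remain. The difference between regions was -1.16 ± 0.30 (log2 ± SE, diaphysis minus metaphysis, n = 3 and 3) with an adjusted p of 0.0385 in the fit across all genes. The exact permutation p, 2-sided, was 0.1, the smallest that 3 against 3 allows. Leaving out diaphysis library 3, metaphysis library 2 or metaphysis library 3 ended the call, with an adjusted p of up to 0.137.

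Of the Dlx and Msx homeobox genes, 5 were tested, 3 were higher in the metaphysis and 0 in the diaphysis. Over all 12637 genes, 13.6% were called at an adjusted p under 0.05, 5.9% as higher in the diaphysis and 7.74% as higher in the metaphysis. Dlx4, the neighbour of Dlx3 at 95001770 to 95007577 on the minus strand, was at 1.298, 1.51 and 1.13 RPKM in the diaphysis and at 3.21, 3.11 and 3.91 RPKM in the metaphysis. Its difference was -1.31 ± 0.20, adjusted p 0.00853, and 0.0524 without metaphysis library 3. In wild-type mice Dlx4 did not pass 0.644 RPKM in any library. Dlx5, which acts in osteoblast differentiation, was at 18.8, 27.1 and 21.7 RPKM in the diaphysis and at 33.2, 48.3 and 49.3 RPKM in the metaphysis. Its difference was -0.94 ± 0.20, adjusted p 0.0222, and the call was lost without diaphysis library 3, metaphysis library 2 or metaphysis library 3. Dlx6 lay at 5.88 ± 1.33 and 5.77 ± 0.35 RPKM (SD, n = 3) and did not pass, nor did Msx1 with a difference of -0.33. Leaving out metaphysis library 3 left 0 of the 5 called.

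Across the transcriptome, 745 genes were higher in the Dlx3-deleted diaphysis and 978 in the metaphysis. Differences of at least 2-fold were found for 206 and 348 of them. Of the genes called, 70 were under 1 RPKM in all 3 diaphysis libraries and 24 in all 3 metaphysis libraries. These were tested only because the libraries of the other region were high. The median over all genes tested was 0.02 on the log2 scale. All 745 diaphysis-high genes and 977 of the 978 metaphysis-high genes had no overlap between the regions' libraries, against 37.1% of all genes tested, 17.7% with the diaphysis higher and 19.4% with the metaphysis higher. The calls and the overlap come from the same values, so the lack of overlap is not separate evidence for the calls. How many genes passed depended on single libraries. Leaving out 1 library at a time gave between 309 calls, without metaphysis library 3, and 3019, without diaphysis library 1. The 309 were 119 genes higher in the diaphysis and 190 higher in the metaphysis. In all 6 such fits 247 genes were called, 65 higher in the diaphysis and 182 in the metaphysis. No called gene changed direction in the fits that tested it. The 70 and 24 genes under 1 RPKM in 1 region fell below the filter without a library of the other region. They could therefore not be among the 247, however large their differences, and Lect1, for example, was called in the 3 fits that tested it.

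**Figure D1:**
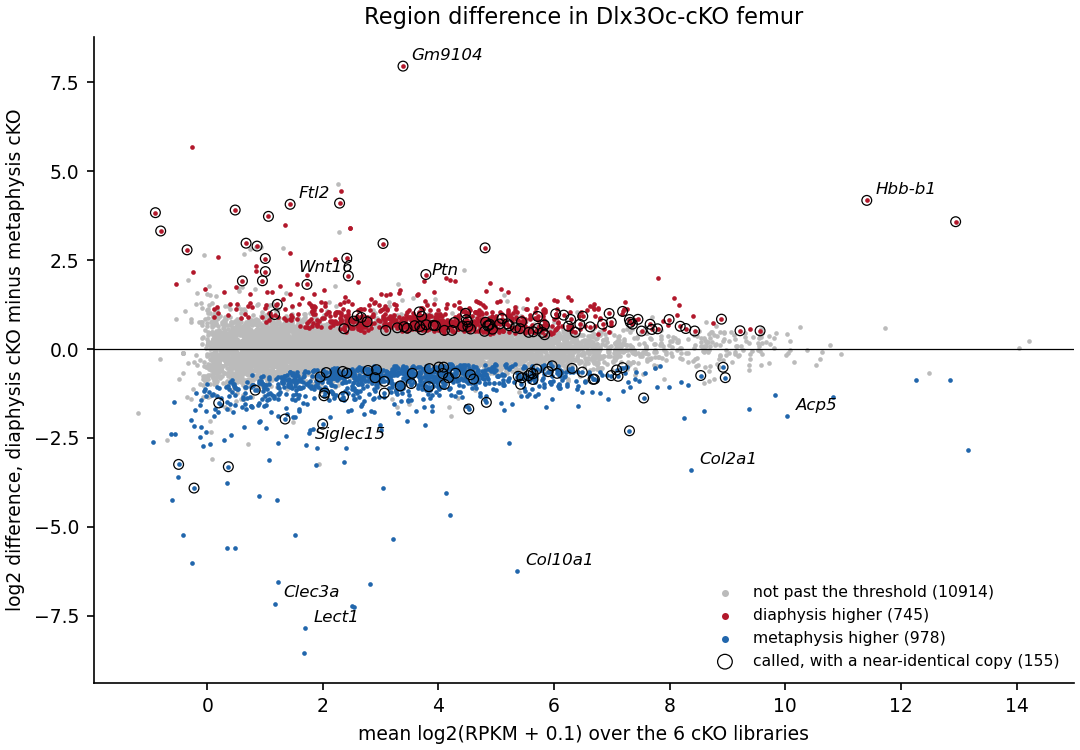
Difference between Dlx3-deleted diaphysis and metaphysis for each of the 12637 genes tested, against its mean level over the 6 libraries; both axes are log2(RPKM + 0.1), and coloured points passed an adjusted p of 0.05. Cartilage genes form the lowest points at moderate mean levels, and many of the highest points are circled, which marks genes with a near-identical copy elsewhere in the genome.

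Cartilage genes were higher in the metaphysis. In the growth plate chondrocyte list, which holds collagens, proteoglycans and regulators of cartilage, 30 of 35 genes were tested, 23 were higher in the metaphysis and 1 in the diaphysis, with a median log2 difference of -3.02. In 10 of the 30, all 3 diaphysis libraries were under 1 RPKM, so these genes were tested only because the metaphysis libraries were high. They fell below the filter when a metaphysis library was left out, which left 20 tested. The median was then -1.66, -1.20 and -1.36 without metaphysis library 1, 2 and 3, and 14, 11 and 9 members were called as higher in the metaphysis. Summed over the list, the diaphysis libraries held 641 to 857 RPKM and the metaphysis libraries 2787 to 4143 RPKM.

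Col10a1, the collagen of hypertrophic chondrocytes (chromosome 10, 34109787 to 34116891, plus strand), was at 6.92, 4.78 and 2.95 RPKM in the diaphysis and at 414, 260 and 415 RPKM in the metaphysis. The means differed 74.3-fold, and the log2 difference was -6.24 ± 0.31 with an adjusted p of 3.15e-05. Col2a1, the main cartilage collagen (chromosome 15, 97806033 to 97835126, minus strand), kept a higher level in the shaft, at 128, 130 and 63.4 RPKM against 670, 1419 and 1301 RPKM, a difference of -3.40 ± 0.35, adjusted p 0.00211. Hapln1, which links hyaluronan to aggrecan, was at 1.46, 1.14 and 1.49 RPKM against 47.6, 59.5 and 71.9 RPKM. Aggrecan itself, Acan, was at 4.31, 4.50 and 3.90 RPKM against 52.4, 78.7 and 87.5 RPKM. Cartilage oligomeric matrix protein, Comp, was at 3.92, 3.76 and 3.01 RPKM against 54.4, 138 and 102 RPKM. For each of these genes every metaphysis library lay above every diaphysis library.

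Other cartilage genes were close to undetected in the shaft. Lect1, which encodes the cartilage protein chondromodulin, was at 0.150, 0.155 and 0.0512 RPKM in the diaphysis and at 25.2, 71.6 and 65.7 RPKM in the metaphysis. The 3 chains of collagen IX behaved alike: Col9a1 was at 0.718, 0.331 and 0.194 RPKM against 48.0, 83.8 and 90.2 RPKM, and the log2 differences of Col9a2 and Col9a3 were -6.61 ± 0.32 and -7.23 ± 0.28. The matrilins Matn3 and Matn1 differed by -6.55 ± 0.27 and -5.60, Epyc by -6.02 ± 0.41, Ucma by -5.61 ± 0.56 and Mia1 by -5.24 ± 0.31. Clec3a, a cartilage lectin outside the list, differed by -7.16 ± 0.49, from at most 0.220 RPKM in the diaphysis to 13.1, 46.0 and 32.0 RPKM in the metaphysis. The lowest point of all was 3110079O15Rik, which encodes the cartilage membrane protein Snorc, at 0.349, 0 and 0 RPKM against 34.7, 99.2 and 69.4 RPKM. Metaphysis library 1 was the lowest of its group for Lect1, Col9a1, Clec3a and 3110079O15Rik. Because 0.1 RPKM was added before logs were taken, these differences understate the change of genes so low in the shaft.

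Not every gene of the list followed this order. Sox6, a transcription factor of early chondrocytes that red cell precursors also use, was the 1 member higher in the diaphysis, at 12.1, 8.54 and 13.9 RPKM against 6.51, 4.60 and 5.16 RPKM. Its difference was 1.06 ± 0.21, adjusted p 0.0199, and up to 0.0695 without diaphysis library 3, metaphysis library 2 or metaphysis library 3. Mmp13, a collagenase of hypertrophic chondrocytes and osteoblasts, was abundant in both regions, at 112, 147 and 229 RPKM against 546, 735 and 525 RPKM. Its difference was -1.93 ± 0.26, adjusted p 0.0057.

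Hedgehog and PTHrP signals set the pace at which chondrocytes mature. Of 11 genes of this group tested, 5 were higher in the metaphysis and 0 in the diaphysis, with a median of -0.75. Among the 11, 1 was under 1 RPKM in all 3 diaphysis libraries and was tested only because the metaphysis libraries were high. That gene fell below the filter when a metaphysis library was left out, which left 10 tested. The ligand Ihh, made by chondrocytes that are about to enlarge (chromosome 1, 74991891 to 74998246, minus strand), was at 1.47, 1.15 and 1.56 RPKM against 5.86, 4.13 and 6.72 RPKM, a difference of -1.91 ± 0.23, adjusted p 0.00348. The receptor Pth1r, shared by chondrocytes and osteoblasts, was at 61.3, 71.5 and 66.1 RPKM against 134, 162 and 163 RPKM, a difference of -1.20 ± 0.13. Gli2, a transcription factor that carries the hedgehog signal, differed by -1.33 ± 0.24, adjusted p 0.014. The regions did not overlap for these genes. Leaving out metaphysis library 3 left 2 of the group past the threshold.

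Osteoblast genes were higher in the metaphysis. Of 23 tested, 11 were higher there, 0 in the diaphysis, and 12 did not pass, with a median of -0.84. Summed levels were 14711 to 21811 RPKM in the diaphysis and 30054 to 33087 RPKM in the metaphysis. Ibsp, the bone sialoprotein of newly mineralizing matrix, was at 202, 497 and 493 RPKM in the diaphysis and at 1211, 1178 and 1175 RPKM in the metaphysis. Its difference was -1.70 ± 0.32, adjusted p 0.0171, and 0.0558 without metaphysis library 3. Diaphysis library 1 was the lowest of the 6. Osteopontin, Spp1, was at 925, 1298 and 1244 RPKM against 2354, 3687 and 2811 RPKM, a difference of -1.34 ± 0.22, adjusted p 0.0104. Smpd3, a sphingomyelinase needed for mineralization, was at 15.5, 31.4 and 23.5 RPKM against 68.3, 61.3 and 69.8 RPKM.

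The list also holds factors that commit cells to the osteoblast lineage. Sp7 (osterix) was at 55.3, 82.2 and 66.6 RPKM against 118, 133 and 129 RPKM, a difference of -0.92 ± 0.16, adjusted p 0.0134, and 0.0557 without metaphysis library 3. Runx2 differed by -0.68 ± 0.16, adjusted p 0.0305, a call lost without diaphysis library 3 or any metaphysis library. The type I collagen chain Col1a1 was at 4998, 5972 and 5416 RPKM against 10382, 9310 and 10462 RPKM. These groups lay far apart, but the call, with an adjusted p of 0.0206 and a difference of -0.88 ± 0.18, was lost without any of those same libraries, with an adjusted p of up to 0.0996. It was also lost, at 0.102, when genes with near-identical copies were left out of the fit. Alkaline phosphatase, Alpl, did not pass at -0.84, adjusted p 0.0548. The osteocalcin genes Bglap and Bglap2, markers of the mature osteoblast that share most of their sequence, differed by -0.02 and 0.08. Across the osteoblast list, between 4 and 14 genes were called when 1 library was left out, the fewest without metaphysis library 3. When the spread was estimated over all 12 libraries, wild type included, 0 osteoblast genes passed.

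Genes of the osteocyte, the cell embedded in finished bone, did not share 1 direction. Of 20 tested, 2 were higher in the diaphysis and 3 in the metaphysis, with a median of -0.26. Mepe, a matrix phosphoprotein of osteocytes (chromosome 5, 104754348 to 104767630, plus strand), was at 160, 183 and 140 RPKM in the diaphysis and at 70.6, 87.3 and 48.0 RPKM in the metaphysis. Its difference was 1.26 ± 0.22, adjusted p 0.0131. Sost, the osteocyte's Wnt inhibitor sclerostin, was at 120, 44.4 and 53.5 RPKM against 33.0, 35.2 and 21.8 RPKM. The regions did not overlap, but the spread in the diaphysis was wide and the difference of 1.16 ± 0.36 did not pass, adjusted p 0.0645. Dmp1 did not pass either, at -0.26 ± 0.18. In the other direction, the homeobox gene Irx5 was at 6.03, 6.69 and 7.19 RPKM against 17.3, 19.4 and 17.7 RPKM, a difference of -1.44 ± 0.13, adjusted p 0.00111. Fgf23, the phosphate hormone of osteocytes, was below the filter and was not tested, at 0.651 to 0.791 RPKM in the diaphysis and 0.067 to 0.101 RPKM in the metaphysis.

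Mineralization genes overlap with both lists, and of 19 tested, 10 were higher in the metaphysis and 1, Mepe, in the diaphysis. The phosphatase Phospho1, which releases phosphate inside matrix vesicles, differed by -0.93 ± 0.15, adjusted p 0.0101, and 0.0517 without metaphysis library 3. Mgp, an inhibitor of calcification made by chondrocytes and other cells, was at 66.5, 89.7 and 69.6 RPKM against 133, 296 and 198 RPKM. Its difference was -1.41 ± 0.27, adjusted p 0.0175, a call lost without diaphysis library 3 or metaphysis library 3. Without metaphysis library 3, 2 genes of the mineralization list were called as higher in the metaphysis.

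The bone matrix list split. Of 43 collagens, collagen enzymes and matrix proteins tested, 8 were higher in the diaphysis and 9 in the metaphysis, with a median of -0.29. Aspn (asporin), a small proteoglycan of periosteum and tendon (chromosome 13, 49639812 to 49662926, plus strand), was at 44.7, 70.5 and 72.2 RPKM in the diaphysis and at 20.04, 22.2 and 15.1 RPKM in the metaphysis, a difference of 1.69 ± 0.22, adjusted p 0.00518. Postn (periostin), named for the periosteum, was at 172, 269 and 292 RPKM against 98.7, 110 and 79.1 RPKM, a difference of 1.32 ± 0.22, adjusted p 0.0113. Tnn, a tenascin, was at 26.5, 44.5 and 39.6 RPKM against 11.4, 11.3 and 6.34 RPKM. Col3a1, the collagen of loose connective tissue, was at 324, 565 and 462 RPKM against 182, 250 and 145 RPKM, with an adjusted p of 0.0212 and a call lost without diaphysis library 2, diaphysis library 3, metaphysis library 1 or metaphysis library 3. Without metaphysis library 3, 4 genes of the list were called in each direction. With the spread of all 12 libraries, Aspn, Postn and Tnn did not pass (adjusted p 0.166, 0.265 and 0.171). Wild-type diaphysis library 1 was far below the other 2 for each of them, for Aspn at 9.54 against 90.6 and 142 RPKM.

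Among the matrix genes higher in the metaphysis, Loxl4, a lysyl oxidase that crosslinks collagen, was at 4.53, 8.14 and 7.06 RPKM in the diaphysis and at 30.7, 25.01 and 29.8 RPKM in the metaphysis, a difference of -2.13 ± 0.22, adjusted p 0.0018. Fkbp11, a prolyl isomerase of the secretory pathway, differed by -1.30 ± 0.15, adjusted p 0.00297. The tendon, periosteum and fibroblast list overlaps with these genes, and of its 33 tested members 4 were higher in each region, with a median of 0.23. Without metaphysis library 3 the counts were 2 and 2. Its 4 diaphysis-high members included Aspn and Postn, and its metaphysis-high members included the cartilage gene Comp.

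Osteoclast genes were higher in the metaphysis, where cartilage and new bone are resorbed. Of 24 tested, 15 were higher there and 0 in the diaphysis, with a median of -0.93. Summed levels were 1997 to 2781 RPKM in the diaphysis and 5123 to 5727 RPKM in the metaphysis. Acp5, the tartrate-resistant acid phosphatase (chromosome 9, 21931175 to 21940190, minus strand), was at 411, 560 and 695 RPKM against 1780, 2095 and 2202 RPKM, a 3.65-fold difference of means with an adjusted p of 0.00265. Ctsk, the collagen-degrading cathepsin K, was at 432, 627 and 720 RPKM against 1483, 1337 and 1469 RPKM, a difference of -1.30 ± 0.20. Mmp9, a gelatinase also found in neutrophils, was at 193, 190 and 252 RPKM against 642, 688 and 787 RPKM. No diaphysis library reached the lowest metaphysis library for these genes.

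Other genes of the list act in osteoclast formation and fusion. Siglec15, a receptor of maturing osteoclasts, was at 1.15, 1.37 and 1.05 RPKM against 7.21, 8.15 and 9.75 RPKM, a difference of -2.71 ± 0.19, adjusted p 0.0002. Oscar, an osteoclast-associated receptor that binds collagen, was at 4.72, 5.16 and 6.32 RPKM against 21.1, 20.6 and 24.2 RPKM. The fusion protein DC-STAMP, listed as Tm7sf4, differed by -1.75 ± 0.20 and the proton pump subunit Atp6v0d2 by -1.70 ± 0.21. Of the 12 regulators of osteoclasts tested, Csf1, the growth factor of the lineage, was at 15.02, 17.6 and 20.4 RPKM against 36.0, 37.4 and 32.2 RPKM, a difference of -1.0 ± 0.15, adjusted p 0.00781. RANKL (Tnfsf11) and its decoy receptor (Tnfrsf11b) did not pass, at -0.44 and -0.29. Between 9 and 17 osteoclast genes were called when a library was left out, the fewest without metaphysis library 3.

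**Figure D2:**
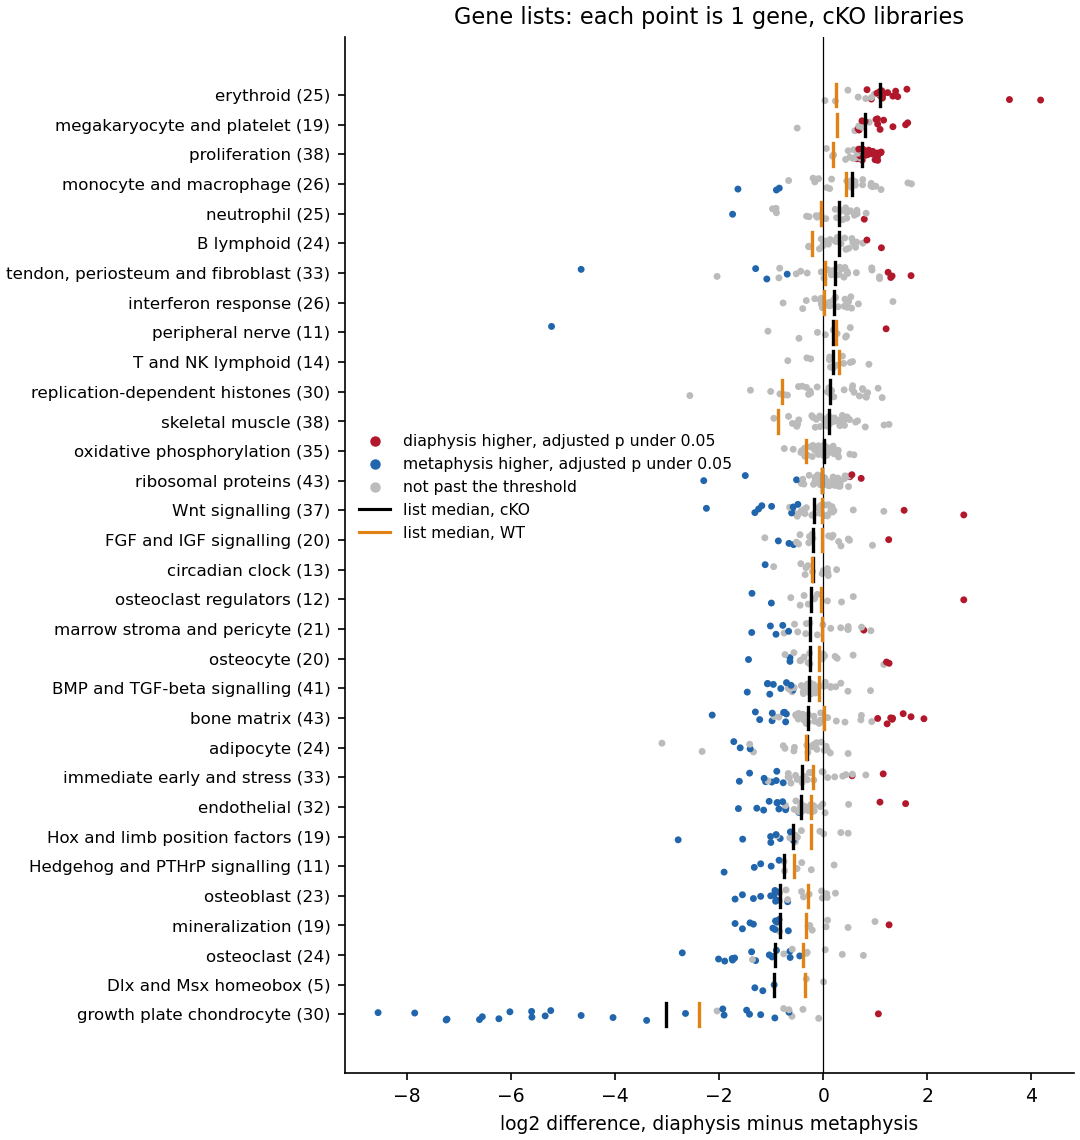
Log2 difference, diaphysis minus metaphysis, of each tested member (points) of the gene lists with at least 5 tested members in the Dlx3Oc-cKO libraries; the black mark is the list's median in these libraries and the orange mark its median in the 6 wild-type libraries. Chondrocyte members reach -8.56, while the proliferation, erythroid and megakaryocyte lists have medians of 0.74, 1.09 and 0.80.

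Wnt signals drive bone formation, and secreted antagonists hold them in check. Of 37 genes tested, 2 were higher in the diaphysis and 9 in the metaphysis, with a median of -0.18. The ligand Wnt16, known for its role in cortical bone thickness (chromosome 6, 22238230 to 22250409, plus strand), was at 4.71, 7.59 and 8.63 RPKM in the diaphysis and at 1.55, 0.661 and 0.836 RPKM in the metaphysis. Its means differed 6.87-fold, and its log2 difference of 2.70 ± 0.33, adjusted p 0.0042, was the widest of the diaphysis-high genes that the naming rule admits. Dkk3, a secreted protein of the Dickkopf family, was at 10.2, 18 and 14.0 RPKM against 3.91, 6.87 and 3.61 RPKM, adjusted p 0.015, a call lost without diaphysis library 3 or metaphysis library 3. On the metaphysis side, the Wnt-inactivating enzyme Notum was at 1.92, 1.36 and 1.39 RPKM against 7.41, 6.32 and 9.56 RPKM, a difference of -2.25 ± 0.21, adjusted p 0.00135. The antagonist Frzb differed by -1.24 ± 0.21, a call lost without metaphysis library 3. Without that library, 1 Wnt gene was called as higher in the metaphysis.

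In BMP and TGF-beta signalling, 9 of 41 tested genes were higher in the metaphysis and 0 in the diaphysis, with a median of -0.27. Id3, a target of BMP signals that blocks differentiation factors, was at 147, 135 and 175 RPKM against 310, 344 and 305 RPKM, a difference of -1.07 ± 0.14. Its relative Id1 differed by -0.96 ± 0.12. Bmp1, a protease that processes procollagen, differed by -1.03 ± 0.14, adjusted p 0.00628. Between 3 and 12 members were called when a library was left out, the fewest without metaphysis library 2. Of 20 FGF and IGF genes, Igf2, a fetal growth factor, was the 1 member higher in the diaphysis, at 21.2, 26.7 and 22.5 RPKM against 9.77, 10.7 and 8.70 RPKM. Over all genes tested, 5.9% were called as higher in the diaphysis and 7.74% in the metaphysis. The difference of Igf2 was 1.26 ± 0.14, adjusted p 0.00302, while 3 members were higher in the metaphysis, among them the chondrocyte receptor Fgfr3 at -0.66, adjusted p 0.0303. Those 3 calls were lost without diaphysis library 3, metaphysis library 2 or metaphysis library 3, that of Fgfr3 also without diaphysis library 2, and Igf2 was called in all 6 fits.

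Hox genes give limb cells their position along the body axes. Of 41 Hox and limb position genes in both tables, 19 reached the filter, 8 were higher in the metaphysis and 0 in the diaphysis, with a median of -0.57. Among the 19, 1 was under 1 RPKM in all 3 diaphysis libraries and reached the filter only through the metaphysis libraries. Without any of those libraries 18 were tested. Hoxb2 (chromosome 11, 96212946 to 96217003, plus strand) was at 1.98, 1.91 and 1.83 RPKM in the diaphysis and at 11.5, 15.8 and 14.4 RPKM in the metaphysis. Its means differed 7.28-fold and its adjusted p was 7.61e-05. Its neighbour Hoxb3 (96184640 to 96207999, plus strand) differed by -1.55 ± 0.21, adjusted p 0.00589. Without metaphysis library 2, 2 of these genes were called.

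**Figure D3:**
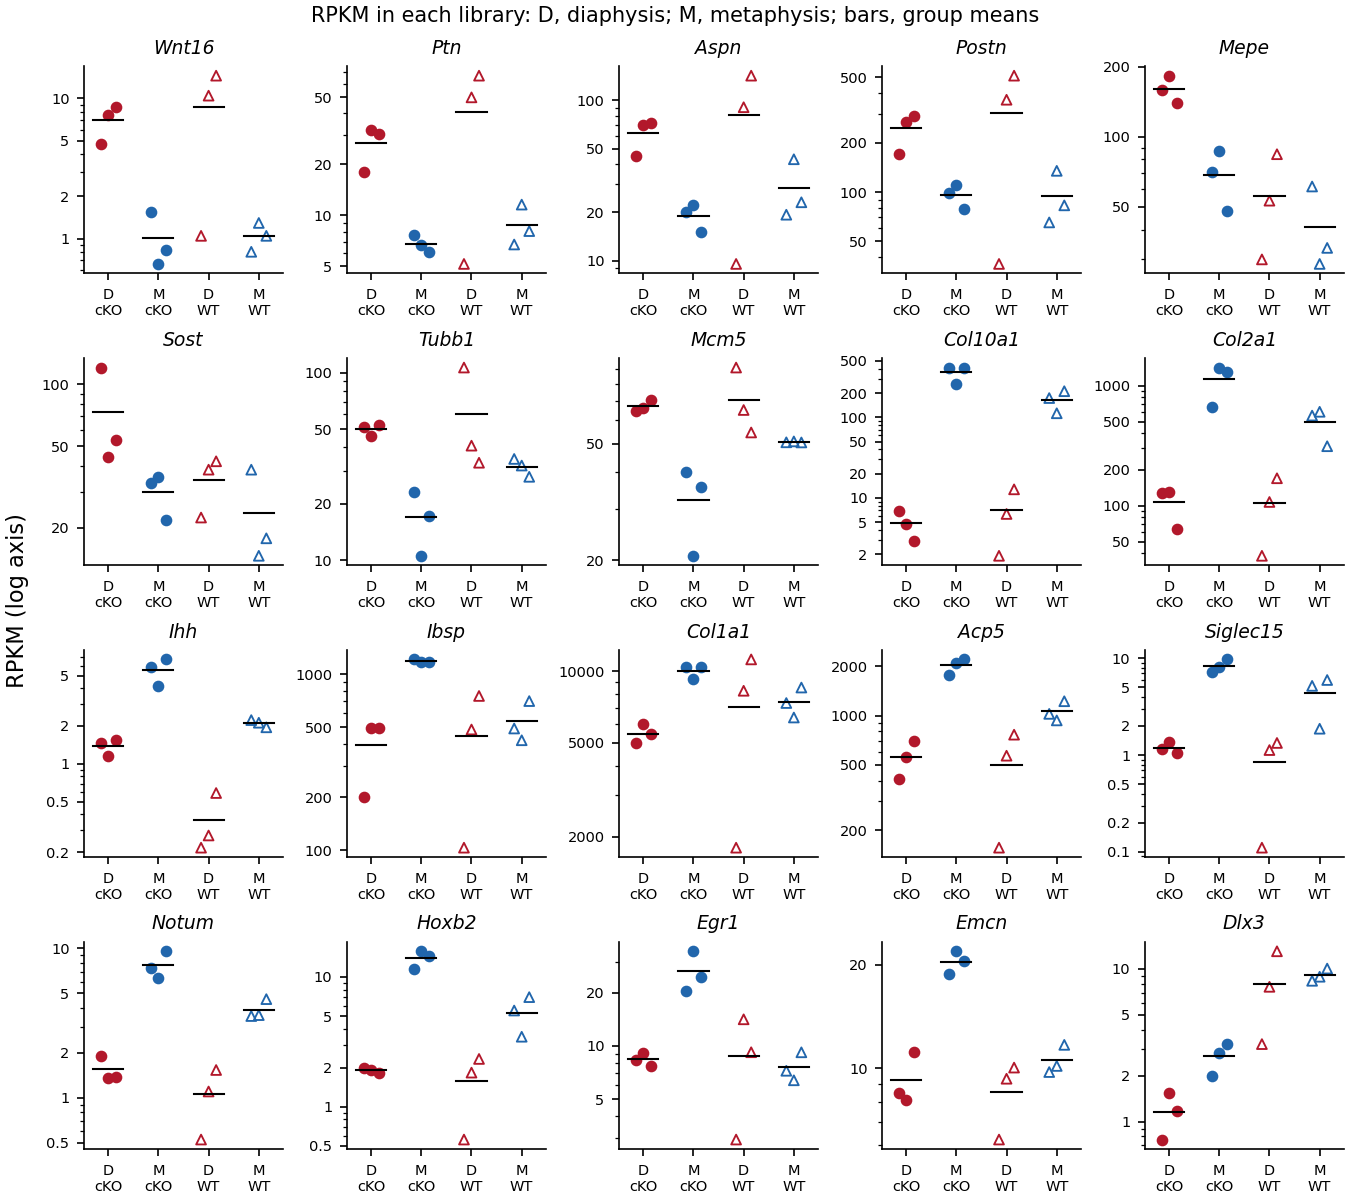
RPKM of 20 genes named in the text in each of the 12 libraries, on a log axis. Each point is 1 library, coloured by region, with Dlx3Oc-cKO libraries as filled circles and wild-type libraries as open triangles. In the Dlx3Oc-cKO libraries, Wnt16, Ptn, Aspn, Postn, Mepe, Tubb1 and Mcm5 are higher in the diaphysis, and Col10a1, Col2a1, Ihh, Acp5, Siglec15, Notum and Hoxb2 higher in the metaphysis, with no overlap of the 3 and 3 libraries.

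Genes of cell division were more often higher in the diaphysis. Of 38 proliferation genes, which cover DNA replication and mitosis, 24 were higher in the diaphysis and 0 in the metaphysis, with a median of 0.74. The count is 18 of 31 when members with near-identical copies are set aside. Mcm5, a subunit of the replication helicase, was at 64.8, 65.9 and 70.2 RPKM in the diaphysis and at 40.0, 20.7 and 35.6 RPKM in the metaphysis, a difference of 1.11 ± 0.23, adjusted p 0.021. Mcm3 was at 79.0, 87.7 and 85.5 RPKM against 48.6, 27.5 and 44.1 RPKM, adjusted p 0.016, and Mki67, the proliferation antigen, at 95.3, 114 and 127 RPKM against 71.0, 37.9 and 58.1 RPKM. Metaphysis library 2 was the lowest for each of these genes. The call of Mcm3 was lost without diaphysis library 3, that of Mcm5 without diaphysis library 2, diaphysis library 3 or metaphysis library 3, and that of Mki67 without any of these 3 or metaphysis library 2. The count depended on single libraries, with 0 of the list called without diaphysis library 3 and 26 without diaphysis library 1. Over all genes, those fits gave 86 and 1793 diaphysis-high calls, against 745 with no library left out. With no filter on low values, 4 of the list were called, beside 342 diaphysis-high genes in all. The median stayed between 0.58 and 0.84 when 1 library was left out.

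Erythroid genes, of the red cell precursors in marrow, were also more often higher in the diaphysis. Of 25 tested, 17 were higher in the diaphysis and 0 in the metaphysis, with a median of 1.09. Of these 17, 2 are the beta globin copies described below, and without genes that have copies the count was 15 of 21. Spnb1, the beta spectrin of the red cell skeleton, under a symbol outside the list (chromosome 12, 77681475 to 77811534, minus strand), was at 57.9, 47.8 and 63.1 RPKM against 21.6, 10.9 and 15.8 RPKM, a difference of 1.84 ± 0.24, adjusted p 0.00502. Of the list's members, ankyrin, Ank1, which ties spectrin to the membrane, was at 46.3, 35.5 and 44.8 RPKM against 20.3, 14.1 and 19.4 RPKM. Alas2, the first enzyme of haem synthesis in red cells, was at 521, 402 and 489 RPKM against 310, 193 and 250 RPKM. Its difference was 0.93 ± 0.20, adjusted p 0.0223, a call lost without diaphysis library 3, metaphysis library 2 or metaphysis library 3. The factor Gata1 did not pass, at 0.82 and an adjusted p of 0.0555. Without diaphysis library 3, 3 erythroid genes were called, and 4 with no filter on low values. The diaphysis-high counts over all genes in these fits were 86 and 342.

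Megakaryocyte and platelet genes were also higher in the diaphysis, 12 of 19 tested against 0, with a median of 0.80 and sums of 821 to 1278 against 503 to 692 RPKM. Tubb1, the beta tubulin of platelets (chromosome 2, 174276196 to 174283383, plus strand), was at 51.1, 46.0 and 52.7 RPKM against 23.0, 10.6 and 17.2 RPKM, a difference of 1.62 ± 0.25, adjusted p 0.00906. Vwf, the von Willebrand factor of platelets and endothelium, was at 22.4, 14.5 and 15.3 RPKM against 8.49, 4.49 and 4.67 RPKM, a call lost without metaphysis library 3. The platelet integrin Itga2b differed by 1.09, adjusted p 0.027, a call lost without diaphysis library 3, metaphysis library 2 or metaphysis library 3. Leaving out metaphysis library 3 left 4 genes of the list called, beside 119 diaphysis-high calls over all genes.

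Other blood lineages showed few calls. Leaving out diaphysis library 1 raised the diaphysis-high counts to 7 B lymphoid, 6 neutrophil and 2 T and NK genes. Diaphysis-high calls over all genes rose from 745 to 1793 in that fit. With no library left out, 5.9% of all genes tested were called as higher in the diaphysis and 7.74% in the metaphysis. Of 24 B lymphoid genes 2 were higher in the diaphysis, among them the B cell factor Pax5 at 1.12, adjusted p 0.0269. Of 25 neutrophil genes, 1 passed in each direction, and of 14 T and NK genes none passed. Mmp9, given above as higher in the metaphysis, is on both the neutrophil and the osteoclast lists. Of 26 monocyte and macrophage genes, 0 were higher in the diaphysis and 3 in the metaphysis, although the list's median was 0.55 and 12 members were called as higher in the diaphysis without diaphysis library 1. Cd68, a lysosomal protein of macrophages and osteoclasts, was at 18.8, 45.1 and 41.1 RPKM against 87.7, 99.7 and 122 RPKM, a difference of -1.64 ± 0.31, and the call was lost without metaphysis library 3. Csf1r, the receptor of Csf1, differed by -0.90, adjusted p 0.0376. The calls of Pax5 and Csf1r were lost without diaphysis library 3 or any metaphysis library.

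Several of the widest diaphysis-high differences belong to genes outside these lists. Ptn (pleiotrophin), a heparin-binding growth factor (chromosome 6, 36689469 to 36760160, minus strand), was at 17.99, 32.0 and 30.2 RPKM against 7.71, 6.66 and 6.08 RPKM, a difference of 1.92 ± 0.23, adjusted p 0.00332. Lrrc15, a membrane protein with leucine-rich repeats, was at 6.93, 7.61 and 5.74 RPKM against 1.75, 2.44 and 0.775 RPKM, adjusted p 0.0126. Tnfrsf14, a receptor of the TNF family, was at 39.8, 28.8 and 46.8 RPKM against 14.1, 6.51 and 10.6 RPKM, adjusted p 0.00836. Gnaz, a G protein subunit, was at 5.18, 5.58 and 5.62 RPKM against 2.14, 0.98 and 1.46 RPKM. Tac2, a tachykinin precursor, differed by 1.87 ± 0.35, a call lost without diaphysis library 3.

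Epx, Prg2 and Alox15 differed in a less even way. Prg2, a granule protein of eosinophils, was at 181, 791 and 615 RPKM in the diaphysis and at 160, 96.2 and 90.9 RPKM in the metaphysis. Epx, the eosinophil peroxidase, was at 13.8, 71.3 and 43.8 RPKM against 12.5, 6.25 and 8.48 RPKM. Alox15, a lipoxygenase, was at 4.49, 20.2 and 14.5 RPKM against 2.87, 1.37 and 1.56 RPKM. Diaphysis library 1 lay near the metaphysis libraries for all of them, and libraries 2 and 3 far above. The adjusted p values were 0.0367, 0.0443 and 0.021. Calls of Epx and Prg2 were lost without any library but diaphysis library 1, and that of Alox15 without any but diaphysis library 1 and metaphysis library 1.

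Vessel genes were more often higher in the metaphysis than in the diaphysis. Of 32 endothelial genes, 11 were higher in the metaphysis and 2 in the diaphysis, with a median of -0.44. Sox18, a transcription factor of vessel formation, was at 9.88, 6.48 and 6.63 RPKM against 23.4, 24.2 and 22.9 RPKM, a difference of -1.63 ± 0.18, adjusted p 0.0025. Emcn (endomucin), a sialomucin of capillaries and veins, was at 8.48, 8.11 and 11.2 RPKM against 18.8, 21.9 and 20.6 RPKM, a difference of -1.15 ± 0.16, adjusted p 0.00589. Esm1, a marker of sprouting tip cells, went the other way, at 11.9, 14.8 and 10.9 RPKM against 6.25, 4.93 and 6.32 RPKM, adjusted p 0.00894. The general endothelial marker Pecam1 differed by 0.03. Between 2 and 16 endothelial genes were called as higher in the metaphysis when a library was left out, the fewest without metaphysis library 3.

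Stromal, fat, nerve and muscle lists moved less as groups. Of 21 marrow stroma and pericyte genes, 5 were higher in the metaphysis, 2 of them without metaphysis library 3, and 1 in the diaphysis. Foxc1, a factor of the marrow niche, was at 4.51, 4.38 and 4.59 RPKM against 9.21, 14.0 and 12.8 RPKM, a difference of -1.38 ± 0.18, and the pericyte proteoglycan Cspg4 differed by -1.02 ± 0.15. The leptin receptor Lepr differed by -0.91, adjusted p 0.0261, a call lost without diaphysis library 2, metaphysis library 1 or metaphysis library 3, while the chemokine Cxcl12, abundant in these cells, stood at -0.11. Of 24 adipocyte genes, 3 were higher in the metaphysis: Thrsp at -1.72 ± 0.27, the desaturase Scd1 at -1.60 ± 0.26 and Cfd (adipsin) at -1.41 ± 0.18. Adiponectin, Adipoq, did not pass at 0.48. Of 11 peripheral nerve genes, 1 passed in each direction: Gfap at 1.21 ± 0.22, and Fxyd3, an ion pump regulator found in Schwann cells and epithelia, at -5.22 ± 0.45 from at most 0.083 RPKM in the diaphysis. Fxyd3 reached the filter only through the metaphysis libraries, and without any of them 10 genes were tested and 0 were higher in the metaphysis. None of 38 skeletal muscle genes passed, and their summed levels, a measure of muscle left on the bone, overlapped widely at 3125 to 11449 RPKM in the diaphysis and 4144 to 15635 RPKM in the metaphysis.

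Lists of immediate early and stress, clock, interferon response, oxidative phosphorylation and histone genes were examined in the same way. Of 33 immediate early and stress genes, 8 were higher in the metaphysis and 2 in the diaphysis, with a median of -0.41. Without metaphysis library 3 the counts were 2 and 0. Egr1, an immediate early transcription factor, was at 8.32, 9.13 and 7.69 RPKM against 20.4, 34.3 and 24.4 RPKM, a difference of -1.61 ± 0.19, adjusted p 0.00364. Klf2, induced by blood flow in endothelium, differed by -1.14 ± 0.14. Of 13 clock genes, only the repressor Bhlhe40 passed, at 10.5, 11.6 and 10.5 RPKM against 19.5, 29.9 and 22.6 RPKM. A count of 1 in 13 is near the 7.74% of all genes tested that were called as higher in the metaphysis. None of 26 interferon response genes, 35 oxidative phosphorylation genes or 30 replication-dependent histone genes passed, and their medians were 0.22, 0.02 and 0.12. Without diaphysis library 1, 6 oxidative phosphorylation genes passed as higher in the metaphysis.

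Near-identical gene copies need separate treatment, because a read that fits several places can be assigned to different copies in 2 tables. The coding sequences of 3 pairs are shown for how closely the copies match. For the first gene of each pair, the first 90 bases of its longest coding exon in the mm9 build (NCBIM37) are given. For the second, the 90 bases with the fewest differences from these are given. Bases are in lower case, with those that differ between the 2 copies in capitals. The adult beta globin genes Hbb-b1 (chr7:110976095-110976184, minus strand) and Hbb-b2 (chr7:110962086-110962175, minus strand) have 0 differences in this window, and ferritin light chain Ftl1 (chr7:52713564-52713653, minus strand) and Ftl2 (chr4:125181907-125181996, plus strand) have 2, as do Hmgb1 (chr5:149861388-149861477, minus strand) and Hmg1l1 (chr7:49276502-49276591, plus strand).
Hbb-b1: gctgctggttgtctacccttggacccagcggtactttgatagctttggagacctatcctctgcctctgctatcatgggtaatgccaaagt
Hbb-b2: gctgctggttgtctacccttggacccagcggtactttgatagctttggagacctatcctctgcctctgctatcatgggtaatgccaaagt
Ftl1: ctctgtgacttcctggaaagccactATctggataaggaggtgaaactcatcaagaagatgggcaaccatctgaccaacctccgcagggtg
Ftl2: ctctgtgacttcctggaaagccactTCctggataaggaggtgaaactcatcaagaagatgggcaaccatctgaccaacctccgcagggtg
Hmgb1: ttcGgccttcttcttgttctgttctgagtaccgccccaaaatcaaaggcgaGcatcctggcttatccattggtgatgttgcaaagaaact
Hmg1l1: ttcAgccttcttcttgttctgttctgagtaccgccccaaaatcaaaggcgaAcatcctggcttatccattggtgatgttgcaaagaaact

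Beta globin was split differently in the 2 tables. Hbb-b1 was at 12760, 6463 and 18780 RPKM in the diaphysis and at 893, 511 and 571 RPKM in the metaphysis, and Hbb-b2 at 45573, 22474 and 19826 RPKM against 3259, 1777 and 2054 RPKM. The third beta globin symbol, Beta-s, went the other way, at 4316, 2742 and 3328 RPKM against 27658, 20798 and 25357 RPKM. The log2 differences were 4.18, 3.58 and -2.84, while the sum of the 3 symbols was 45420 ± 15777 against 27626 ± 4373 RPKM (SD, n = 3), a log2 difference of 0.67. The wild-type libraries were split in the same way, with Beta-s at 4230 ± 2360 RPKM in the diaphysis table and 38451 ± 6345 RPKM in the metaphysis table. The 2 alpha globin genes, by contrast, summed to 38459 ± 9293 against 34566 ± 5734 RPKM.

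In the other pairs shown, the copies differed between the regions by unequal amounts. Ftl2 was at 11.1 ± 2.28 RPKM in the diaphysis and 0.568 ± 0.125 RPKM in the metaphysis, whereas its abundant copy Ftl1 was at 902 ± 68.2 and 886 ± 47.9 RPKM. Hmg1l1, with 16 other near-identical places in the genome, was at 8.09, 60.0 and 16.8 RPKM against 0.505, 5.67 and 0.372 RPKM, and its parent Hmgb1 at 244, 281 and 285 RPKM against 188, 177 and 181 RPKM. The ribosomal protein genes Rpl34, at 141, 37.8 and 67.7 RPKM against 329, 404 and 323 RPKM, and Rps23, at 11.2, 18.6 and 22.8 RPKM against 48.4, 47.6 and 47.1 RPKM, have 5 and 12 such places. Of all 43 ribosomal protein genes tested, 3 passed in each direction and the median was -0.02. The eosinophil-associated ribonucleases, a family of close copies, summed to 287 ± 185 against 48.8 ± 16.6 RPKM, a sum with the same low value in diaphysis library 1 as Epx and Prg2.

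Over the whole table, 1177 of the genes tested had a copy at another place, defined as a match over at least 80% of the transcript or coding sequence with at most 5% difference. Of these, 8.24% were higher in the diaphysis and 4.93% in the metaphysis. Among the 11333 genes with no copy found, the shares were 5.63% and 8.05%. At 8-fold or more, 9 of the 14 diaphysis-high genes had a copy and 4 more could not be matched to a transcript, which left 1, the gene model Gm5148. Of the 29 metaphysis-high genes of that size, 26 had no copy. The largest diaphysis-high value of all, Gm9104 at 124, 204 and 176 RPKM against 0.548, 0.593 and 0.553 RPKM, belongs to a gene model with 43 other matching places.

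**Figure D4:**
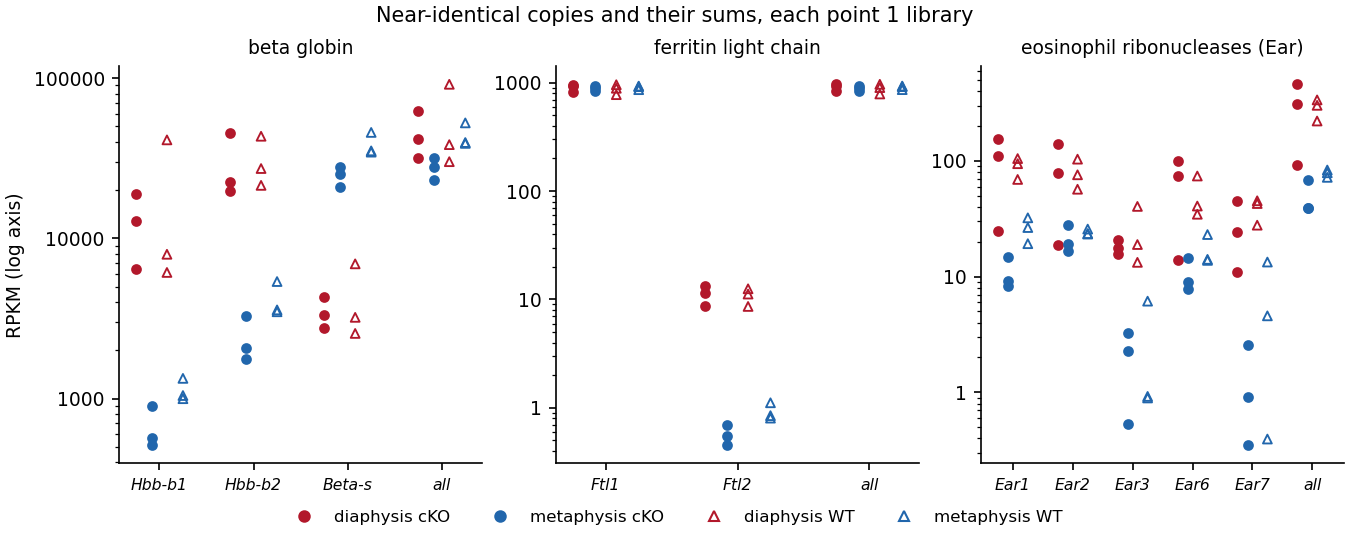
RPKM per library, on a log axis, for the beta globin symbols, the ferritin light chain pair and the eosinophil-associated ribonucleases in all 12 libraries. Dlx3Oc-cKO libraries are filled circles and wild-type libraries open triangles, coloured by region. Hbb-b1, Hbb-b2 and Ftl2 are higher in the diaphysis table and Beta-s in the metaphysis table, while Ftl1 is level.

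The same regions were compared in wild-type mice. Of 12586 genes tested between wild-type diaphysis and metaphysis, 13 passed (0.103%), and 1965 had an unadjusted p under 0.05 in limma. Of the 13, 11 have a near-identical copy, against 9.31% of the genes tested in the Dlx3Oc-cKO comparison, and 11 were called there too. Without wild-type diaphysis library 1, 360 genes (2.87%) passed. With all 6 wild-type libraries, 96.5% of the genes called in the Dlx3Oc-cKO libraries had the same sign in wild type, 693 of 740 diaphysis-high genes and 924 of 935 metaphysis-high genes, against 74.1% of the 12424 genes tested in both. Without wild-type diaphysis library 1 the share was 64.9%, 1080 of 1664, against 58.1% of 12390 genes. The 2 comparisons use different libraries but the same pair of tables, so a constant difference between tables would also give the same sign.

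**Figure D5:**
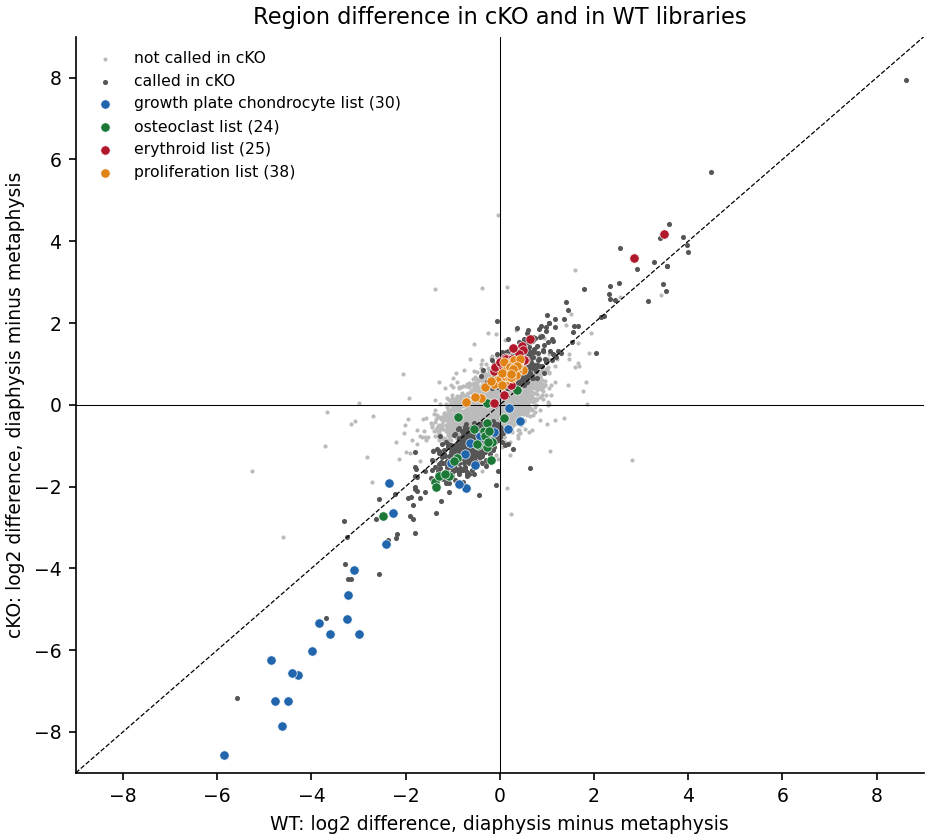
Log2 difference between diaphysis and metaphysis in the Dlx3Oc-cKO libraries (vertical) against the same difference in the wild-type libraries (horizontal) for the genes tested in both. Dark grey points passed in the Dlx3Oc-cKO comparison and light grey points did not. Coloured points are members of the growth plate chondrocyte, osteoclast, erythroid and proliferation lists, whether they passed or not. Cartilage genes lie low in both genotypes, and 96.5% of the genes called in the Dlx3Oc-cKO comparison share their sign in both, 64.9% without wild-type diaphysis library 1.

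Whether the regional difference itself changed with the deletion was tested as an interaction over all 12 libraries, in which a constant difference between tables cancels. Of 12959 genes tested with limma, 0 passed, 526 had an unadjusted p under 0.05, and the smallest adjusted p was 0.908. With a pseudocount of 1 RPKM, 1 gene passed. Without wild-type diaphysis library 1, 124 of 12934 passed (0.959%), 21 with a higher and 103 with a lower diaphysis-minus-metaphysis difference in the Dlx3Oc-cKO mice. These calls rest on leaving out 1 library.

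Of the 30 chondrocyte genes tested between the Dlx3-deleted regions, 12 were among those 124. In wild type, Col9a3 was at 0.320, 2.83 and 1.37 RPKM in the diaphysis and at 29.1, 32.3 and 22.04 RPKM in the metaphysis, and its interaction was -2.73 with all libraries (adjusted p 0.908) and -3.50 without the library (adjusted p 0.0299). Hapln1, at 0.330, 2.94 and 3.11 against 18.9, 24.6 and 25.6 RPKM in wild type, gave -1.52 with all libraries and -2.47 without it, adjusted p 0.014. Matn1, at 0.0569, 0.260 and 0.0798 against 1.64, 1.16 and 2.16 RPKM in wild type, had the smallest unadjusted p of the lower interactions with all libraries, 0.000236, at -2.62 ± 0.50 (adjusted p 0.908), and stood at -2.85 without the library, adjusted p 0.0443. The chondrocyte sums in wild type were 263 to 1518 RPKM in the diaphysis and 1751 to 1925 RPKM in the metaphysis, so the metaphysis sum was higher in every Dlx3Oc-cKO library than in any wild-type library.

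Bone-forming, resorbing and blood-forming lists can be set side by side in the 2 genotypes. The osteoblast median was -0.84 in the Dlx3Oc-cKO libraries, -0.28 in wild type and 0.32 in wild type without diaphysis library 1. The osteoclast median was -0.93, -0.39 and -0.24 in the same order, and the chondrocyte median -3.02, -2.38 and -1.92. For proliferation the values were 0.74, 0.18 and -0.04, for erythroid genes 1.09, 0.25 and -0.06, and for megakaryocyte genes 0.80, 0.26 and -0.23. In the interaction without the library, 2 of 23 osteoblast genes, 1 of 24 osteoclast genes and 1 of 19 megakaryocyte genes passed. Of 38 proliferation and 25 erythroid genes, 0 passed. The share over all genes in that fit was 0.959%, and counts this small do not separate the lists. For Ibsp the wild-type levels were 104, 485 and 751 RPKM in the diaphysis and 491, 421 and 703 RPKM in the metaphysis, an overlap that the Dlx3Oc-cKO libraries did not have, and the interaction did not pass with or without the library (adjusted p 0.908 and 0.0602).

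Other single genes can be compared between the genotypes in the same way. Egr1 was at 2.95, 14.1 and 9.21 RPKM in the wild-type diaphysis and at 7.23, 6.39 and 9.20 RPKM in the metaphysis, a difference of -0.04 that turned to 0.60 without wild-type diaphysis library 1, and its interaction was -1.57 with all libraries (adjusted p 0.908) and -2.21 without the library (adjusted p 0.0299). Emcn was at 6.22, 9.34 and 10.1 against 9.76, 10.2 and 11.7 RPKM in wild type, with an interaction of -0.82 and -1.03 (adjusted p 0.908 and 0.0488). Among the smallest unadjusted p values with all libraries were those of Ube2t, a ubiquitin-conjugating enzyme of DNA repair, at 1.21 ± 0.28 (p 0.00106 in limma), Spc24, a kinetochore protein, at 1.00 ± 0.24 (p 0.00134 in limma), and the immune GTPase Gimap4, at -0.96 ± 0.22 (p 0.00121 in limma). Without the library they were 1.37, 1.10 and -0.88, with adjusted p values of 0.0486, 0.0504 and 0.0617. Wnt16 was at 1.05, 10.5 and 14.5 against 0.807, 1.295 and 1.05 RPKM in wild type, a difference of 2.31 (adjusted p 0.304), and 3.46 without the library (adjusted p 0.00506). Its interaction did not pass and changed sign, from 0.39 with all libraries (adjusted p 0.954) to -0.76 without the library (adjusted p 0.365).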

How the data were processed

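The authors deposited 1 table of RPKM per region, with transcripts in rows, per the file headers. Reads were processed with CASAVA 1.8.2, TopHat 1.3.2, Bowtie 0.12.7.0 and Partek 6.6 on mm9, per the submitters' processing notes; settings and the handling of reads shared by copies were not given in the sources used here. Deposited RPKM values were summed per symbol. Differences between regions were tested on log2(RPKM + 0.1) with limma 3.58.1 (R 4.3.3, mean-variance trend, 2-sided, Benjamini-Hochberg adjustment over all genes tested, threshold 0.05) among symbols at 1 RPKM or more in 3 libraries, after a test on simulated data. Every fold change is on that scale unless called a fold of means. Steps between low values gave read depth and showed 1 set of transcript lengths: across 15 pairs of Dlx3Oc-cKO libraries, 13.5 to 29.6% of low transcripts fell within 1% of a single ratio across tables and 13.7 to 24% within a table. Copies were sought by mapping GENCODE M1 transcripts and coding sequences to NCBIM37 with minimap2 2.31; 17868 of the 18335 symbols matched. Genes were named by rule: the Dlx and Msx genes, per direction the 12 largest differences past the threshold with no overlap and a mean of at least 5 RPKM, without gene models and copy families, the leading and first members of each list, and the smallest p values of the interaction; a few more members were chosen after their values were seen. Members and lists were chosen with earlier results of these data known.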

Additional observations from a re-analysis of the deposited data

How the results depend on the processing

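The number of genes called between the Dlx3-deleted regions, 1723, was 1051 with no filter on low values and 1035 with a spread shared with the wild-type libraries. It ranged from 309 to 3019 when 1 Dlx3Oc-cKO library was left out, which makes 1 group smaller. Diaphysis-high genes, 745, were 342 with no filter, 1200 after median centring and 1119 after quantile normalization, with a range of 86 to 1793 over the libraries left out. Metaphysis-high genes, 978, were 450 with the shared spread, with a range of 190 to 1226. Every other alternative gave a total within 1.5 times of 1723, among them a trimmed mean of M values (2477), globin removal (2137), a pseudocount of 1 (1779), a filter at 5 RPKM (1547) and leaving out genes with copies (1663, chosen after seeing the data). The wild-type count of 13 ranged from 1 to 360 over the libraries left out, and the interaction count of 0 was 1 with a pseudocount of 1 and 124 without wild-type diaphysis library 1. No gene named in the text that was called between the Dlx3-deleted regions changed direction under the alternatives run for that comparison. Genes that did not pass and lie near 0 did: Dlx6 was -0.00114 after median centring, -0.013 with a trimmed mean of M values and -0.16 to 0.15 over the libraries left out, Bglap 0.033 after quantile normalization, 0.016 after globin removal and -0.35 to 0.29, Pecam1 -0.038 after quantile normalization and -0.023 to 0.11, Bglap2 -0.18 to 0.26, Cxcl12 -0.24 to 0.025 and Msx1 -0.69 to 0.0091. Of the named genes, 34 calls were lost with the shared spread and 22 with no filter; the cause was not tested. No paired analysis was possible because each of the 12 titles carries a different number whose meaning is not stated, so that the labels do not tie a diaphysis library to a metaphysis library. Differences of genes near 1 RPKM rest on few reads, most so in diaphysis library 1.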
